A study of Mus musculus with 12 samples.

Results

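The small leucine-rich proteoglycans studied here are 7 genes, Dcn, Lum, Bgn, Fmod, Ogn, Aspn and Prelp, chosen by gene name from the 21936 genes of the expression table. Bulk RNA was sequenced from livers of male C57BL/6 mice (C57BL/6 J in the study's methods), bought at 6 weeks of age, in which chronic fibrosis had been induced with carbon tetrachloride (CCl4, a hepatotoxin) at 1 mL/kg given 2 times per week for 8 weeks. Every group carried this injury, so no healthy liver is among the libraries. LFG, the liver fibrosis group, was killed at the end of the CCl4 course. REG, the regression group, was then given 200 µL PBS by tail vein 2 times per week for 4 weeks, and hADMSCs-Exo was given 250 µg of exosomes from human adipose mesenchymal stem cells in 200 µL PBS on the same schedule. LFG mice were therefore younger and nearer to the last CCl4 dose than the mice of the other groups, and recovery time and age cannot be told apart in any comparison with LFG. There were 3 libraries in each of these 3 groups, and 3 further samples, from mice given the cells themselves, were not analysed here.

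Small leucine-rich proteoglycans are secreted proteins with a curved core of leucine-rich repeats that lies along collagen fibrils and sets their thickness and spacing. Many carry glycosaminoglycan chains, of chondroitin or dermatan sulfate in class I (Dcn, Bgn) and of keratan sulfate in class II (Lum, Fmod). In the liver they are made mainly by stellate cells and portal fibroblasts, they accumulate in scar, and decorin is known for binding transforming growth factor beta while biglycan can act as a danger signal through Toll-like receptors.

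Libraries held 13837445 to 19840917 counts. LFG replicate 3 stood apart from the other LFG libraries: it had the lowest FPKM (the count divided by gene length and by library size) of the 9 libraries for 32.31% of the 16562 genes detected, and for 5 of the 7 proteoglycans. Its stellate cell list, 11 marker genes, summed to 33.68 FPKM, against 102.1 and 149.0 in the other LFG libraries. Several lists of other cell types were lower there too, macrophage at 54.0 against 625.3 and 1035 FPKM, cholangiocyte at 22.36 against 92.1 and 155.1, and endothelium at 8.828 against 23.03 and 26.66, while the hepatocyte list, at 58900, lay between the other LFG libraries and the adipocyte list, at 11.14, above them. The adipocyte sum rests on few genes, since Adipoq, Plin1 and Lep had at most 2 counts in any library. Comparisons of the members with LFG are therefore given with and without this library. The members' own low values are part of what set it apart, and it was the lowest LFG library for all 7. Leaving it out thus raises their LFG level and narrows its spread, so results without it are descriptions and add no support. The labels do not say whether each library came from a separate mouse, so p-values measure only the spread between these samples.

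The genes lie in 3 clusters and 1 lone position (GRCm38). Dcn (ENSMUSG00000019929; chr10:97479609-97518143) and Lum (ENSMUSG00000036446; chr10:97565128-97572703) are neighbours 46.985 kb apart. Aspn (ENSMUSG00000021388; chr13:49544443-49567565) and Ogn (ENSMUSG00000021390; chr13:49608046-49624501) flank Omd on chromosome 13, and both lie within Cenpp, a centromere gene on the opposite strand. Prelp (ENSMUSG00000041577; chr1:133910304-133921414, minus strand) and Fmod (ENSMUSG00000041559; chr1:134037254-134048277, plus strand) face away from each other across 115.84 kb with no gene of the table between them. Gm15851, an antisense RNA, overlaps Prelp. Bgn (ENSMUSG00000031375; chrX:73483602-73495933) stands alone. The strand setting of the counting is not given in the sources used here, so reads of Aspn, Ogn and Prelp could not be separated from those of the genes that overlap them.

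Fmod and Prelp are neighbours whose ratio was higher in every LFG library than in any other. The 150 bases before the RefSeq start sites (GRCm38.p6) of both, and of Bgn, are shown 5′ to 3′ on the gene's own strand. Over all 9 libraries Bgn tracked both more closely than they tracked each other. Dcn, Lum and Ogn did so too, so this is not particular to Bgn. RefSeq promoters were found for 5 of the 7 genes, and those of Ogn and Aspn are not shown. Capitals mark matches, on either strand, to 5 short motifs. These were the promoter element with the letters TATAAA, the SMAD element with CAGAC, the AP-1 element with TGANTCA, the TEAD element with GGAATG and the GC box with GGGCGG.
Fmod, chr1:134037104-134037253, plus strand: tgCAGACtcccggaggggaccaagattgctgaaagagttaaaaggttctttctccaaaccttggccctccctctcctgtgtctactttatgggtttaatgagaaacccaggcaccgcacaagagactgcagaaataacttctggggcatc
Prelp, chr1:133921402-133921551, minus strand: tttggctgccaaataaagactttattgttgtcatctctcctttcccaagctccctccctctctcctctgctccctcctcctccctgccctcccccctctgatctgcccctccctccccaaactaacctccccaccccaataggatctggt
Bgn, chrX:73483451-73483600, plus strand: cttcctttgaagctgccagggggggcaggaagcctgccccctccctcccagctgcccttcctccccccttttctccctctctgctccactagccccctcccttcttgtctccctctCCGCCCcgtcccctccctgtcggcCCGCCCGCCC
Within these windows Fmod held a CAGAC and Bgn held 3 GC boxes, of which the last 2 overlap. Prelp held no match in the 150 bases and a CAGAC at 161 bases before its start, and over the full 250 bases searched Fmod held 2 CAGAC. Of 27025 promoters, 42.1% held CAGAC in 250 bases, 32.9% the GC box, 13.0% TATAAA, 12.6% GGAATG and 6.87% TGANTCA, so CAGAC and the GC box, the ones matched in these 3 genes, are common. A match is a run of letters and not a measured binding site.

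Levels between genes were compared as FPKM, which divides by gene length. Averaged over the 9 libraries, Dcn was the most abundant at 24.67 FPKM, followed by Bgn at 17.73, Prelp at 9.359 and Lum at 8.693. Fmod at 1.04, Ogn at 0.6587 and Aspn at 0.1164 were far lower. Dcn ranked 1463 and Aspn 12972 among the 21936 genes. Prelp and Lum are close in this order and exchanged places between libraries, with Lum above Prelp only in LFG replicates 1 and 2. All members but Aspn had at least 7 counts in each library, and the range from the lowest to the highest library was widest for Lum, at 35.33-fold, and narrowest for Ogn, at 10.81-fold.

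Decorin, encoded by Dcn, is the class I proteoglycan with a single glycosaminoglycan chain. Its mRNA was at 56.8, 45.2 and 5.19 FPKM in LFG replicates 1, 2 and 3, at 33.8, 24.7 and 15.5 in REG and at 7.98, 23.2 and 9.72 in hADMSCs-Exo. LFG replicates 1 and 2 were the highest of the 9 libraries and LFG replicate 3 the lowest, and REG and hADMSCs-Exo overlapped through hADMSCs-Exo replicate 2. Biglycan, encoded by Bgn and carrying a pair of chains, was at 49.3, 38.0 and 2.76 FPKM in LFG, 18.6, 13.7 and 9.96 in REG, and 6.08, 13.7 and 7.56 in hADMSCs-Exo. The order of libraries was much the same as for Dcn. Asporin, encoded by Aspn and lacking a glycosaminoglycan chain, had 15, 16 and 0 counts in LFG, 1, 1 and 3 in REG and 0, 5 and 1 in hADMSCs-Exo. Only LFG replicates 1 and 2 had more than 5 counts of Aspn, and 3 counts, the limit that a count of 0 allows, correspond to 0.151 to 0.217 CPM (counts scaled to the library total) in these libraries, for counting error only.

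Among the class II genes, Lum encodes lumican, which regulates fibril assembly. Lum was at 29.2, 19.3 and 0.827 FPKM in LFG, 9.73, 7.72 and 3.95 in REG, and 1.19, 3.62 and 2.72 in hADMSCs-Exo. It was the only member for which every hADMSCs-Exo library lay below every REG library. Fmod encodes fibromodulin, which binds collagen and guides its crosslinking. Fmod was at 2.98, 3.24 and 0.306 FPKM in LFG, 0.454, 0.935 and 0.381 in REG, and 0.147, 0.496 and 0.427 in hADMSCs-Exo. LFG replicates 1 and 2 were each more than any other library, and the recovery groups overlapped. Prelp encodes prolargin, which binds heparan sulfate and anchors basement membranes to collagen. Prelp was at 18.1, 16.8 and 1.38 FPKM in LFG, 11.8, 10.4 and 6.83 in REG, and 4.0, 9.80 and 5.13 in hADMSCs-Exo. The REG and hADMSCs-Exo ranges overlapped here too. Ogn, which encodes the class III member osteoglycin, was at 0.948, 2.13 and 0.197 FPKM in LFG, 0.328, 0.731 and 0.354 in REG, and 0.261, 0.497 and 0.482 in hADMSCs-Exo, resting on 7 to 90 counts.

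**Figure D1:**
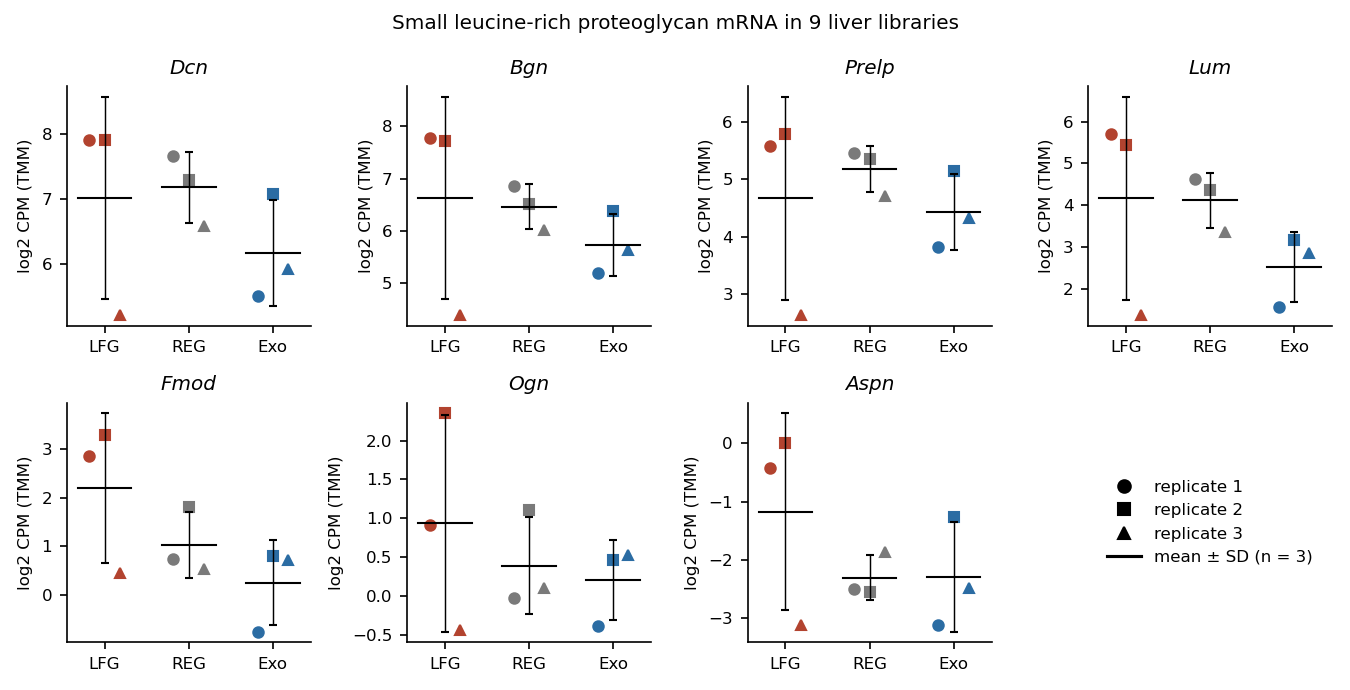
The log2 CPM (counts scaled to library size), adjusted by TMM, of the 7 proteoglycans in 9 liver libraries, with a panel per gene, symbols for the replicate number, and bars for the mean and SD of 3 libraries; Exo stands for hADMSCs-Exo. LFG replicate 3 is the lowest of the 9 libraries for Dcn, Bgn, Prelp, Lum and Ogn, and only Lum separates hADMSCs-Exo (1.57 to 3.16) from REG (3.37 to 4.62).

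The first comparison asked how livers given exosomes differed from livers left to recover on PBS. All 6 members that passed the filter on low counts (Aspn did not) had lower estimates in hADMSCs-Exo than in REG, with a median log2 fold change of -0.73 beside 0.008 for all 12337 genes tested, of which 48.89% were negative. That median was -0.44 without hADMSCs-Exo replicate 1 and -1.10 without hADMSCs-Exo replicate 2. None passed an adjusted p of 0.05 with a log2 change of at least 1 by the quasi-likelihood test of edgeR (p adjusted after Benjamini and Hochberg), where 0.00811% of all genes were called lower. At an unadjusted p under 0.05 there was 1 member, Lum, where 4.69% of all genes were lower by that rule. The same gene was the 1 member whose groups did not overlap, where 7.37% of all genes lay wholly lower. Lum was 2.94-fold lower (log2 fold change -1.56, SE 0.44, 95% interval -2.58 to -0.54, adjusted p = 0.407 by edgeR). Its exact two-sided permutation p on FPKM was 0.1, the smallest that 3 against 3 libraries allow. DESeq2 called Lum and no other member, at -1.57 with an adjusted p of 0.0291, where it called 0.276% of all genes lower. Over 13 settings the adjusted p of Lum ran from that value to 1.0, which came from the fit of all libraries together.

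The other estimates were smaller than that of Lum and their intervals reached 0. Dcn stood at -0.92 on the log2 scale (interval -1.89 to 0.04, adjusted p = 0.514 by edgeR). Bgn and Prelp, at -0.69 and -0.68, had intervals of -1.43 to 0.06 and -1.46 to 0.10. Fmod was at -0.78 and Ogn at -0.25, with intervals of -2.03 to 0.47 and -1.35 to 0.85. Single libraries moved these estimates: with each left out in turn, Fmod ran from -1.06 to -0.26 (the latter without REG replicate 2, and -0.40 without hADMSCs-Exo replicate 1) and Ogn from -0.45 to 0.23. The same ranges were -1.52 to -0.64 for Dcn, -1.08 to -0.45 for Bgn and -1.12 to -0.42 for Prelp, each most negative without hADMSCs-Exo replicate 2. These intervals leave room for a difference of more than 2-fold lower as well as for none. The count at an unadjusted p under 0.05 became 4 without REG replicate 3 and also 4 without hADMSCs-Exo replicate 2, where 4.52% and 4.57% of all genes were lower by that rule.

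Markers of the cells that make these proteins had mostly negative estimates as well. All 11 stellate markers had negative estimates in hADMSCs-Exo against REG, 3 of them at an unadjusted p under 0.05 (4.69% of all genes were lower by that rule), and none was called. Their summed level ran from 47.37 to 67.69 FPKM in hADMSCs-Exo and from 54.28 to 110.3 in REG, with at least 10 of the 11 detected in each library. The portal fibroblast list summed to 3.911 to 7.787 FPKM against 8.257 to 12.92, with 6 of 7 tested genes negative, and the smooth muscle list to 0.5592 to 1.387 against 3.178 to 7.463, with all 4 tested genes negative. The lists of other cell types were mixed. Estimates were negative for 6 of 6 endothelial genes (median -0.75, beside -0.69 for the stellate list), 4 of 6 cholangiocyte genes (median -0.42), 3 of 6 hepatocyte genes (median -0.02), 2 of 4 mesothelial genes (median 0.16) and 2 of 7 macrophage genes (median 0.20). Of the defining markers of these cells, Gli1, Tagln and Myocd had at most 8 counts in any library. The part of these cell types in the proteoglycan differences was not tested, and in bulk liver fewer cells of a type and less RNA per cell cannot be told apart.

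The next comparison set exosome-treated livers against the end of the CCl4 course. With all libraries, all 6 members tested were lower in hADMSCs-Exo, with a median log2 fold change of -1.33 beside -0.059 for all 12489 genes. No member was called by edgeR, DESeq2 or limma's voom, which called 0.0%, 0.312% and 0.00801% of all genes lower. By edgeR, 2 members, Lum (-2.40, SE 0.98) and Fmod (-2.35, SE 0.82), had unadjusted p values of 0.0441 and 0.0239, both with an adjusted p of 0.805, where 3.68% of all genes were lower at an unadjusted p under 0.05. With replicate number as a block, 0 members were under that p (2.96% of all genes were lower by it). Same-numbered libraries of these groups deviated together only weakly (r of 0.101, 0.308 and 0.18), and no label pairs them. No member had groups that did not overlap, where 5.52% of all genes lay lower, since LFG replicate 3 lay among or below the treated libraries for each of them. Bgn stood at -1.44, Ogn at -1.22, Dcn at -1.13 and Prelp at -0.69 (adjusted p = 0.82 to 0.911 by edgeR). With each library left out in turn Ogn ran from -1.63 to -0.19 and Prelp from -1.16 to -0.25, the smallest without LFG replicate 2 and the largest without LFG replicate 3, Dcn from -1.71 to -0.81 and Bgn from -1.93 to -1.07.

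Without LFG replicate 3, 7 of 7 members lay lower in every hADMSCs-Exo library than in both remaining LFG libraries, where 24.9% of all genes did so. Of the 7, 3 fell past both thresholds by edgeR, where 4.5% of all 12955 genes were called lower, and all 7 had an unadjusted p under 0.05, where 15.7% of all genes were lower by that rule. Lum fell by 2.92 on the log2 scale (SE 0.40, adjusted p = 0.021), Fmod by 2.80 (SE 0.48, adjusted p = 0.0261) and Bgn by 1.93 (SE 0.32, adjusted p = 0.0259). Dcn at -1.58 (adjusted p = 0.0633), Prelp at -1.16 (0.0849), Ogn at -1.63 (0.113) and Aspn at -2.56 (0.13) did not pass. With all libraries and the other settings the adjusted p of Lum, Fmod and Bgn reached 1.0, so these calls rest on leaving that library out. It was set apart partly by the members' own low values, so these calls are a description. Aspn passed the filter on low counts only through the LFG libraries where it was high, so its place among the 7 adds no support. In the same fit the stellate list had 3 of 11 genes called lower, the portal fibroblast list 3 of 7, the smooth muscle list 4 of 5, the cholangiocyte list 1 of 6 and the macrophage list 1 of 7. With all libraries no tested gene of these lists was called, but only 2 smooth muscle genes were tested there, so its 4 add no support. Wholly lower without that library were 8 of 11 stellate, 4 of 7 portal fibroblast, 5 of 5 smooth muscle, 6 of 6 cholangiocyte and 5 of 7 macrophage genes. The same held for 3 of 7 mesothelial, 1 of 6 endothelial and 0 of 6 hepatocyte genes.

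The last comparison followed recovery on PBS from the end of CCl4. With all libraries the members' estimates ran from -1.55 for Fmod to 0.02 for Prelp, with Ogn at -0.94, Lum at -0.81 (adjusted p = 0.743 by edgeR) and Bgn at -0.72 (adjusted p = 0.73), and a median of -0.77 beside -0.068 for all 12517 genes. That median was -0.33 without LFG replicate 1, -0.16 without LFG replicate 2, -1.33 without LFG replicate 3 and -0.50 without REG replicate 3. None was called by edgeR (0.0% of all genes were called lower), none had an unadjusted p under 0.05 (6.7% of all genes were lower by that rule), and none had groups that did not overlap (9.63% of all genes lay lower). DESeq2 called none (1.17% of all genes were called lower), with 1 member at an unadjusted p under 0.05 (7.89% of all genes), and limma's voom with quality weights called 1, Fmod, at -1.88 (adjusted p = 0.0266), where it called 6.74% of all genes lower. The interval of Dcn, -1.74 to 1.38, and that of Prelp, -1.61 to 1.65, allow for changes of either sign.

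Once LFG replicate 3 was left out, 3 of the 6 members tested in both fits fell in REG against LFG by edgeR, where 6.94% of all 12948 genes were called lower. Bgn fell by 1.21 on the log2 scale (SE 0.25, adjusted p = 0.0248), Fmod by 1.98 (SE 0.43, adjusted p = 0.0267) and Lum by 1.33 (SE 0.33, adjusted p = 0.0369). Aspn, on 15 and 16 counts against 1 to 3, entered this fit only because its LFG counts were high, so its value (-2.89, adjusted p = 0.036) is given as a description and adds no support. Dcn at -0.63 (adjusted p = 0.167), Prelp at -0.45 (0.207) and Ogn at -1.34 (0.134) did not pass. By log2 CPM scaled with TMM, REG lay wholly lower for 6 of 7 members, where 29.2% of all genes did so, and the exception was Ogn, with 1.11 in REG replicate 2 above 0.91 in LFG replicate 1. By FPKM the REG libraries of Ogn lay below both as well. Over the other settings the adjusted p of Bgn, Fmod and Lum reached 0.928 to 0.954, and with each library left out in turn Bgn ran from -1.21 to -0.35, Lum from -1.33 to -0.30 and Fmod from -2.05 to -1.03. These calls by edgeR thus also rest on leaving out a library set apart partly by the members' own low values. In the fit without LFG replicate 3, 1 of 11 stellate, 3 of 8 portal fibroblast, 0 of 5 smooth muscle, 3 of 6 cholangiocyte and 1 of 7 mesothelial genes were called lower. With all libraries none was called, and only 4 mesothelial genes were tested. Both comparisons with LFG share its libraries, and the difference between hADMSCs-Exo and REG is the direct test given first.

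**Figure D2:**
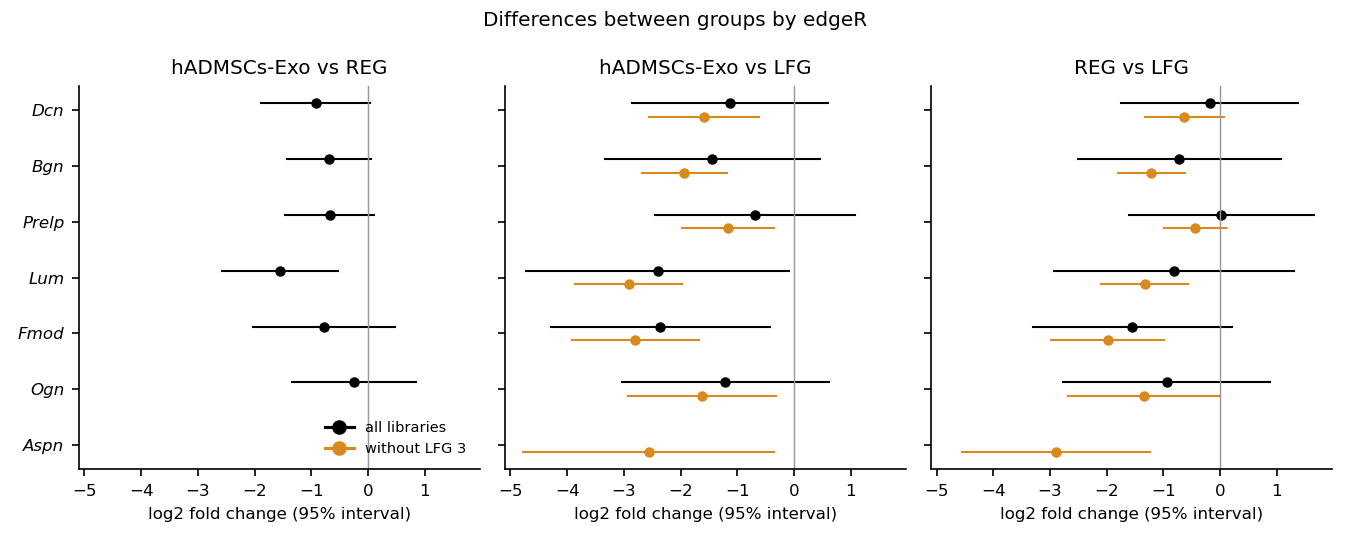
The log2 fold changes of the proteoglycans by edgeR with 95% intervals, for 3 comparisons, with all libraries in black and without LFG replicate 3 in orange; Aspn passed the filter on low counts only in the latter fits. The intervals against LFG narrow when that library is left out, and in hADMSCs-Exo against REG only that of Lum (-2.58 to -0.54) lies wholly below 0.

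Ratios between members of the same library do not depend on the library's depth or on how much proteoglycan RNA it held in all. The summed level of the 7 genes was 157.7, 125.0 and 10.66 FPKM in LFG, 74.68, 58.2 and 37.03 in REG, and 19.66, 51.39 and 26.06 in hADMSCs-Exo. LFG replicate 3, so low in sum, was near its group in its mixture of some members and not of others. Prelp was 11.5%, 13.4% and 12.9% of the sum in LFG, 15.7%, 17.9% and 18.4% in REG, and 20.4%, 19.1% and 19.7% in hADMSCs-Exo. The share of Prelp was thus higher in REG than in LFG and higher again in hADMSCs-Exo with no overlap, LFG replicate 3 included, as a description with no test. Fmod was 1.89%, 2.59% and 2.87% of the sum in LFG, at most 1.61% in REG and at most 1.64% in hADMSCs-Exo. Lum was 13.0%, 13.3% and 10.7% in REG and 6.06%, 7.05% and 10.4% in hADMSCs-Exo, while in LFG its share was 18.5%, 15.4% and 7.76%. Here LFG replicate 3 had a Lum share like those of the treated livers.

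**Figure D3:**
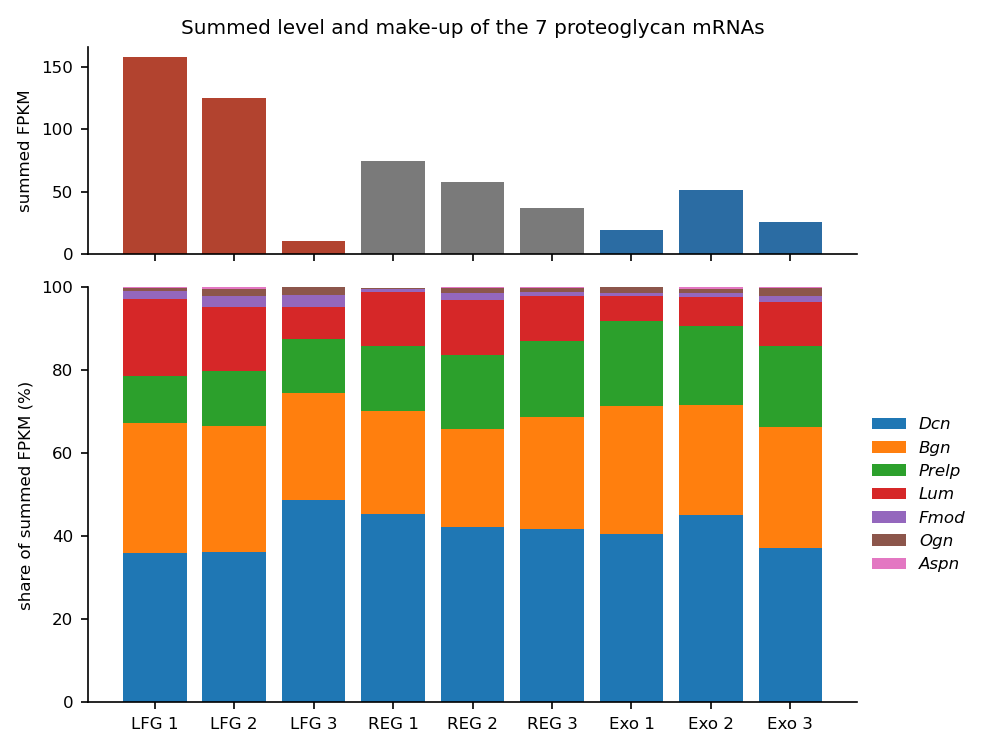
The summed FPKM of the 7 proteoglycans in each of the 9 libraries (upper bars) and the percent of that sum given by each gene (stacked lower bars); Exo stands for hADMSCs-Exo. The sum of LFG replicate 3 is the lowest, at 10.66 FPKM, and the share of Prelp is 11.5 to 13.4% in LFG and 19.1 to 20.4% in hADMSCs-Exo.

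Of 15 ratios among the 6 better counted members, compared between 3 pairs of groups, 16 of 45 comparisons had groups that did not overlap. Of these, 5 set hADMSCs-Exo against REG, 7 set it against LFG, and 4 set REG against LFG. Each of the 16 had an exact two-sided permutation p of 0.1, the smallest possible with 3 libraries a group, and a Benjamini-Hochberg value of 0.2812 over the 45, so none passed a test. Without LFG replicate 3 the count became 11 of 15 between hADMSCs-Exo and LFG and 7 of 15 for REG and LFG. Groups that lie apart stay apart when a library is left out, so these counts could not fall and add no support. The 5 ratios described next were chosen after their values were seen. Fmod to Prelp, the chromosome 1 neighbours whose upstream sequences are given above, had a log2 FPKM ratio of -2.38 ± 0.22 (SD, n = 3) in LFG, -4.11 ± 0.61 in REG and -4.22 ± 0.59 in hADMSCs-Exo. All LFG libraries were above all others, with a mean of -2.49 without LFG replicate 3, and the REG and hADMSCs-Exo ranges overlapped. Prelp to Bgn was ordered the opposite way, at -1.21 ± 0.22 in LFG (-1.31 without its replicate 3), -0.53 ± 0.13 in REG and -0.55 ± 0.06 in hADMSCs-Exo.

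In other ratios hADMSCs-Exo and REG did not overlap, although none passed a test. Lum to Prelp was 0.05 ± 0.72 on the log2 scale in LFG (0.44 without its replicate 3), -0.50 ± 0.27 in REG and -1.37 ± 0.42 in hADMSCs-Exo, and Lum to Bgn was -1.03 ± 0.27 in REG and -1.91 ± 0.44 in hADMSCs-Exo. In both, each hADMSCs-Exo library lay below each REG library. Ogn to Fmod was -0.96 ± 0.60 in LFG (-1.13 without its replicate 3), -0.31 ± 0.19 in REG and 0.33 ± 0.43 in hADMSCs-Exo, with no overlap between any pair of groups, but it rests on as few as 7 counts of Ogn and 8 of Fmod.

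**Figure D4:**
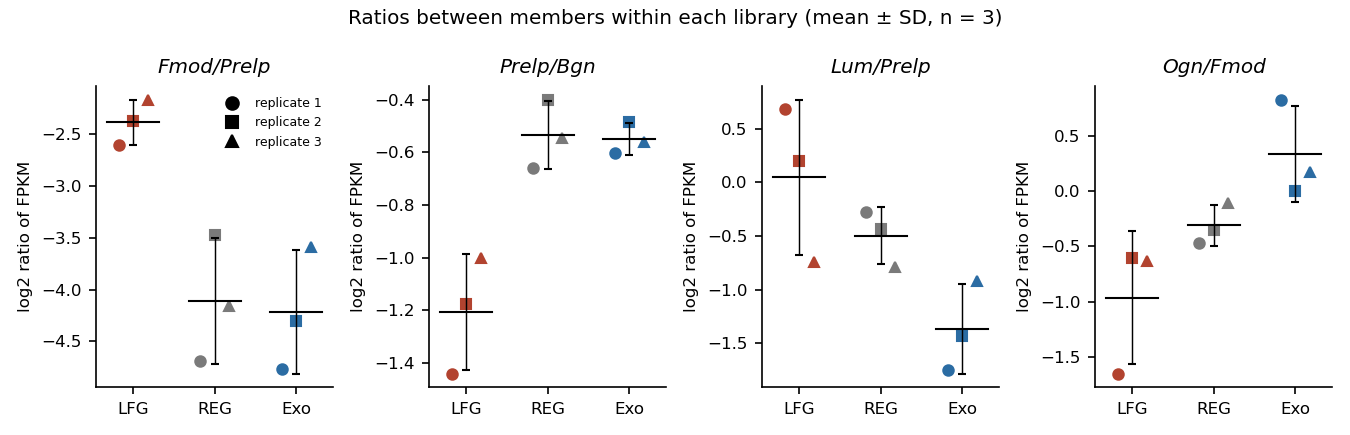
The log2 ratio of FPKM between pairs of proteoglycans within each library, with symbols for the replicate number and bars for the mean and SD of 3 libraries; Exo stands for hADMSCs-Exo. Fmod relative to Prelp is higher in every LFG library than in any other, and Lum relative to Prelp is lower in every hADMSCs-Exo library than in any REG library.

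Across the 9 libraries the members varied together to different degrees, as a description over libraries that share their groups and, in each case, LFG replicate 3. Pearson's r of log2 CPM was 0.97 for Dcn and Bgn, 0.972 for Lum and Bgn, 0.964 for the neighbours Dcn and Lum, and 0.953 for Dcn and Prelp. Over all 9 libraries the lowest was 0.683, between the neighbours Fmod and Prelp. That pair was at 0.851 without LFG replicate 3, where the lowest was 0.623, between Dcn and Ogn. The genes most like the mean of the 6 better counted members, out of 11981, were Afap1, an actin filament-associated protein (r = 0.99), C7, a complement component (0.986), Postn, which encodes the matricellular protein periostin (0.985), Dkk3 (0.984), Adamts2, the procollagen N-proteinase (0.983) and Antxr1, a collagen-binding receptor (0.982). Without LFG replicate 3 these values were 0.974 to 0.984.

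Of 10 other genes of the family, 6 were tested in each comparison. Kera and Epyc, which neighbour Lum on chromosome 10, had 0 counts in all 9 libraries, and Optc, next to Prelp, had at most 7. Tsku, which encodes tsukushi, a family member secreted by hepatocytes, had the highest FPKM of the whole family averaged over the 9 libraries, although in REG its mean of 21.8 was below the 24.7 of Dcn. It was at 61.7, 41.1 and 97.4 FPKM in LFG, 20.8, 9.19 and 35.4 in REG, and 80.6, 72.4 and 80.6 in hADMSCs-Exo. Its REG libraries were the lowest, with no overlap with either other group, whereas Aspn, with at most 3 counts in REG, was the only member with its lowest mean there. Tsku was 3.44-fold higher in hADMSCs-Exo than in REG (log2 fold change 1.78, SE 0.41, unadjusted p = 0.00223), with an adjusted p of 0.358 by edgeR that ran from 0.000582, by DESeq2, to 1.0 over the settings. Between REG and LFG it stood at -1.56 (SE 0.62, adjusted p = 0.43 by edgeR), and at -0.81 (adjusted p = 0.224) without LFG replicate 3. Between hADMSCs-Exo and LFG it stood at 0.22 (adjusted p = 0.959 by edgeR). Without LFG replicate 3, where Tsku was highest, that value was 0.95 (adjusted p = 0.0392). Podn (podocan) at -0.53, Omd (osteomodulin) at -0.49 and Chad (chondroadherin) at 0.64 in hADMSCs-Exo against REG had adjusted p of 0.586, 0.694 and 0.767 by edgeR. With each library left out in turn these ran from -0.68 to -0.30 for Podn, -0.72 to -0.20 for Omd and 0.19 to 1.73 for Chad, whose ends came without REG replicate 1 and without REG replicate 3. Across the 9 libraries Tsku ran against the mean of the members, with r of -0.6, and of -0.469 without LFG replicate 3.

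**Figure D5:**
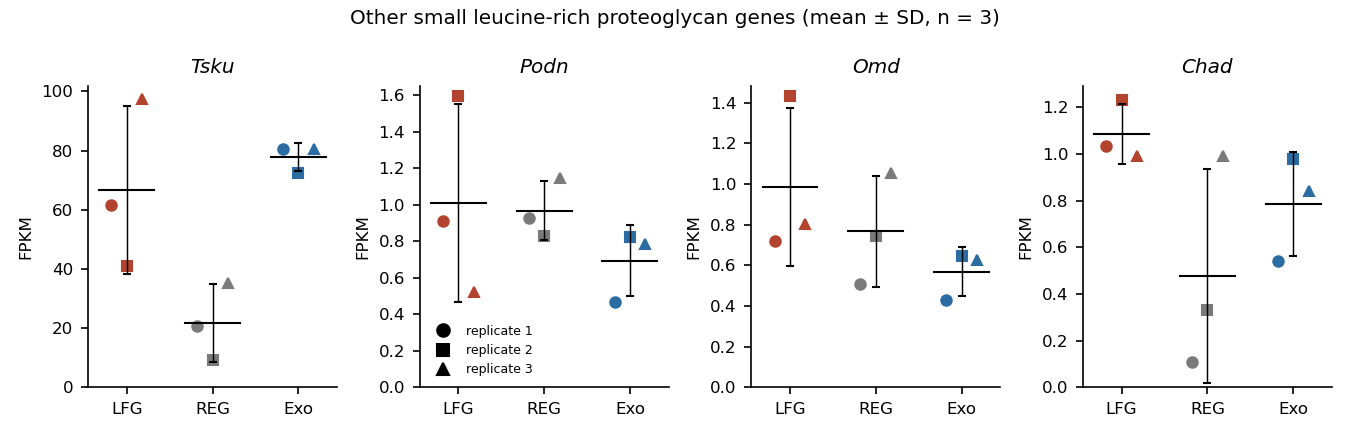
The FPKM of Tsku, Podn, Omd and Chad, the most abundant other family genes, in 9 liver libraries, with symbols for the replicate number and bars for the mean and SD of 3 libraries; Exo stands for hADMSCs-Exo. Tsku is lowest in REG (9.19 to 35.4 FPKM) and highest on average in hADMSCs-Exo (72.4 to 80.6 FPKM).

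The enzymes that build the sugar chains had medians nearer to 0 than the cores in hADMSCs-Exo against REG. None of 5 tested genes for the linker that starts each chain, 13 for chondroitin and dermatan sulfate and 4 for keratan sulfate was called in hADMSCs-Exo against REG, with median log2 fold changes of 0.03, -0.21 and 0.21. Of the most abundant linker genes, B3gat3 was at 0.03, Xylt2 at 0.02 and Fam20b at -0.03, while B4galt7, a galactosyltransferase, stood at 0.44 (SE 0.16, adjusted p = 0.435 by edgeR). Of the chondroitin and dermatan sulfate genes, Chst13 was at 0.12, Chpf2 at 0.11, Csgalnact2 at -0.08 and Dse at -0.39. B4galt1, which extends keratan sulfate and other glycans, was at 0.50 (SE 0.16, adjusted p = 0.409 by edgeR), beside B4galt4 at -0.07, B3gnt2 at 0.70 and Chst2 at -1.10. None was called against LFG with all libraries, where the chondroitin and dermatan sulfate list had medians of -0.63 in hADMSCs-Exo and -0.28 in REG. Without LFG replicate 3 that list had 13 of 15 genes negative in hADMSCs-Exo (median -0.99, 7 lower at an unadjusted p under 0.05, 0 called) and 12 of 15 in REG (median -0.62, 3 lower at that p, 1 called), and 1 linker gene was called lower in REG. In these fits 49.66% and 50.22% of all genes were negative, 15.7% and 19.1% were lower at that p, and 4.5% and 6.94% were called lower. In REG against LFG the linker list had 5 genes tested with all libraries and 6 without LFG replicate 3, and the chondroitin and dermatan sulfate list 14 and 15. A called gene may thus have been tested only without that library, so these calls add no support. Dse, the epimerase that makes dermatan sulfate, was at -0.99 (SE 0.23, adjusted p = 0.0467 by edgeR) in hADMSCs-Exo without that library, just short of the fold threshold, and at -0.50 with all libraries.

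The proteases that cleave the cores or their partners differed in direction. In hADMSCs-Exo against REG, Mmp2, gelatinase A, was at 0.754 ± 0.284 FPKM against 2.55 ± 0.590 (SD, n = 3), a log2 fold change of -1.81 (SE 0.35, adjusted p = 0.358 by edgeR), while Bmp1, the proteinase that processes procollagen and the biglycan precursor, stood at 0.49 (SE 0.15, adjusted p = 0.409 by edgeR). Neither group pair overlapped, Mmp14 at 0.34 and Pcolce at -0.38 did overlap, and 0 of 7 proteases were called. Against LFG with all libraries 0 of 7 were called either way, with Mmp2 at -3.04 in hADMSCs-Exo (adjusted p = 0.805 by edgeR) and -1.20 in REG (adjusted p = 0.681). Without LFG replicate 3, 3 of 9 proteases were called lower in hADMSCs-Exo and 5 of 9 in REG against LFG, where 4.5% and 6.94% of all genes were. With all libraries 7 were tested, so some of the 9 entered only once that library was left out, and these counts add no support. Mmp2 was among those called, at -3.57 (adjusted p = 0.0105 by edgeR) and -1.73 (adjusted p = 0.0157), while Bmp1 was at 0.27 and -0.18. None of 10 receptors was called in hADMSCs-Exo against REG, with Egfr at 0.48 (SE 0.21) and Lrp1 at 0.32 (SE 0.24), the most abundant, Cd14, a Toll-like receptor partner, at 0.87 (SE 0.24, adjusted p = 0.402 by edgeR) and Met, the hepatocyte growth factor receptor that decorin binds, at 0.31 (SE 0.13, adjusted p = 0.49 by edgeR). Against LFG without its replicate 3, 1 of 10 receptors was called lower in hADMSCs-Exo and 2 in REG, beside 4.5% and 6.94% of all genes. With all libraries 0 were called.

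The collagens to which the proteoglycans bind were also lower in estimate. In hADMSCs-Exo against REG, 5 of 10 genes of the collagen and partner list were lower at an unadjusted p under 0.05, where 4.69% of all genes were. By edgeR 0 were called, with Col3a1 at -1.73 (SE 0.36, adjusted p = 0.358 by edgeR), Col1a2 at -1.20 (SE 0.41, adjusted p = 0.428) and Col1a1 at -1.19 (SE 0.31, adjusted p = 0.394). Fn1, which encodes fibronectin and is also made by hepatocytes, was at 0.27 (SE 0.16). Against LFG with all libraries 0 of 10 were called, and Col1a1 at -3.84 and Col3a1 at -3.97 in hADMSCs-Exo both had an adjusted p of 0.805 by edgeR. Without LFG replicate 3, 6 of 10 were called lower in each comparison with LFG, where 4.5% (hADMSCs-Exo) and 6.94% (REG) of all genes were. Col1a1 was then at -4.38 and Col3a1 at -4.51 in hADMSCs-Exo (adjusted p = 0.00952 by edgeR for both), against -2.92 for Lum, the member with the largest difference there. Among proteoglycans of other families, 0 of 14 were called in hADMSCs-Exo against REG, and Sdc4, a cell surface heparan sulfate proteoglycan and the most abundant of them, was at 0.51 (SE 0.19, adjusted p = 0.452 by edgeR), followed by Sdc1 at 0.17, Sdc2 at 0.08 and Prg4 at 0.22. Of 15 tested against LFG without its replicate 3, 3 were called lower in hADMSCs-Exo and 3 in REG, beside 4.5% and 6.94% of all genes. With all libraries 0 of 13 were called, so some of the 15 were tested only without that library.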

How the data were processed

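Liver RNA of 3 groups, 3 libraries each, was analysed. According to the submitters' processing notes, the authors used cutadapt 1.15, HISAT2 2.0.5 on GRCm38, HTSeq 0.9.1 and DESeq 1.30.0. The deposited counts per gene were tested, and the FPKM deposited by the authors beside them were used for levels between genes. Columns named MSC_E were taken as the hADMSCs-Exo libraries. Each pair of groups was fitted alone by edgeR 4.0.16 (quasi-likelihood, TMM, filterByExpr, Benjamini-Hochberg), called at an adjusted p of 0.05 and a log2 fold change of at least 1, the thresholds of the study. Alternatives were DESeq2 1.42.0, limma 3.58.1 voom, RLE size factors, no filter, all libraries in one fit, a replicate block and each library left out. Log2 CPM used a prior count of 2. Same-numbered libraries of hADMSCs-Exo and LFG deviated together weakly (r of 0.101, 0.308 and 0.18), which is the only ground for pairing them. Genes named from the lists were the 4 of highest mean FPKM per list; those given against LFG, and list genes named for low counts, were chosen after their values were seen. Members, lists and thresholds were chosen with earlier results of these data known. Scripts were tested on simulated data. Total counts were 13837445 to 19840917, edgeR's intervals cover the spread between libraries, and floors cover counting error only. Promoters came from RefSeq (GRCm38.p6), and overlapping genes from GENCODE M21.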

Additional observations from a re-analysis of the deposited data

How the results depend on the processing

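In hADMSCs-Exo against REG, DESeq2 called 1 member where edgeR called 0, and members at an unadjusted p under 0.05, 1 by edgeR, were 3 with no filter, 4 by DESeq2, 4 by voom, 0 with all libraries in one fit and 1 to 4 with a library left out. In hADMSCs-Exo against LFG that count, 2, was 6 by voom and 0 to 7 with a library left out, and 0 to 3 members were called. In REG against LFG, voom called 1 member and 0 to 4 were called with a library left out, and at an unadjusted p, 0 by edgeR, there was 1 by DESeq2, 4 by voom and 0 to 4 with a library left out. Members wholly lower, chosen as an alternative after seeing the data, numbered 7 and 6 against LFG without LFG replicate 3. The highest counts against LFG include Aspn, which was tested there only where its LFG counts carried it past the filter. In the same fits the share of all genes lower at an unadjusted p was, in hADMSCs-Exo against REG, 3.96% with no filter, 4.56% by DESeq2, 6.0% by voom, 1.29% in one fit, 4.29% with the block and 2.34% to 4.69% with a library left out. It was 15.7% by voom and 1.66% to 15.7% with a library left out in hADMSCs-Exo against LFG, and 7.89%, 22.0% and 2.48% to 19.1% by DESeq2, voom and leaving out a library in REG against LFG. The replicate block gave 4 members at an unadjusted p in hADMSCs-Exo against REG and 0 in hADMSCs-Exo against LFG, turned Dcn to 0.15 and moved the members' median to -0.21 in REG against LFG, and changed no other call. Numbers were not taken as pairs for hADMSCs-Exo and REG (r of 0.159, 0.00935 and 0.0337) or for REG and LFG (0.415, -0.202 and 0.305).

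Some estimates changed sign. In hADMSCs-Exo against REG, Ogn was at 0.23 without REG replicate 2 and 0.01 without hADMSCs-Exo replicate 1. In REG against LFG, Dcn was at 0.13 without LFG replicate 1, 0.13 without LFG replicate 2 and 0.09 without REG replicate 3, Ogn at 0.07 without LFG replicate 2, and Prelp at -0.39 by voom, -0.45 without LFG replicate 3, -0.09 without REG replicate 1 and -0.04 without REG replicate 2. With a library left out, these 3 genes in REG against LFG ran from -0.63 to 0.13 (Dcn), -1.41 to 0.07 (Ogn) and -0.45 to 0.45 (Prelp). The cause was not tested. Aspn, Ogn and Fmod had the fewest counts of the members, and an effect of depth was not tested.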
